A study of Homo sapiens with 6 samples.

Results

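The 11q13 region of chromosome 11 around CCND1 is described here through 10 genes, out of 58735 in the deposited file. They are, in order of gene start, MYEOV, CCND1, LTO1, FGF19, FGF4, FGF3, ANO1, FADD, PPFIA1 and CTTN. The list of names was set with the values of these same samples in view, so the differences between the groups for these 10 genes are given as a description, with no test. Of the 10, 9 were found by symbol. The remaining 1, listed under its older symbol ORAOV1, was found as LTO1 through the synonyms of the RefSeq gene table. The libraries came from SW480, an established human cell line from a colorectal adenocarcinoma, and fall into 2 groups of 3. The genotype label was DDX39B overexpression for 3 of them and WT for the other 3, whose titles call them controls, and all 6 were grown in L-15 medium with serum. DDX39B is an RNA helicase that couples splicing to mRNA export, and the series asked which genes differ when it is overexpressed. The labels do not say how DDX39B was overexpressed or whether the libraries of a group came from separate cultures, so p-values measure only the spread between these libraries.

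The stretch of 11q13 around CCND1 is a well-known site of gene amplification in cancers of the head and neck, oesophagus and breast, where these neighbours are often gained together. CCND1 encodes cyclin D1, which activates CDK4 and CDK6 to release the block that the RB protein puts on entry into DNA synthesis. In the intestine CCND1 is a growth factor and Wnt responsive gene, and FGF19 is a hormone made by the small bowel that acts on the liver to limit bile acid synthesis. Levels are in FPKM, read counts scaled by gene length and library size, a scale that allows genes to be compared with each other. The values were whole multiples of 1 read in every library, which gave 16963075 to 17463697 reads per library.

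The labels did not match the level of the targeted gene. DDX39B was at 15.02, 13.9 and 14.03 FPKM in the libraries labelled overexpression and at 39.3, 34.6 and 41.9 FPKM in those labelled control, 2.70-fold lower under the overexpression label (limma adjusted p = 6.93e-06). For this reason the libraries are named by their label throughout, and a direction holds only for the labels as given. Levels of 16 markers of colon epithelium summed to 2001 to 2023 FPKM in the overexpression-labelled libraries and 358 to 431 FPKM in the others. Of these markers 9 reached a mean of 1 FPKM in the former group and 3 in the latter, so most of the 9 that were tested entered through the group in which they were high, and their count supports nothing. With no filter on level 12 were higher and 1 lower of 15. In the control-labelled libraries CDX2 and ASCL2, transcription factors of gut epithelium and its stem cells, had 0 reads, whereas KRT8 and KRT18 were at 179 ± 9.3 and 202 ± 31 FPKM (SD, n = 3 each). None of 10 leukocyte markers reached a mean of 1 FPKM over the 6 libraries, and their sums were 1.58 to 2.33 against 0.740 to 1.23 FPKM, with 3 and 5 of them at 0 reads. Of 10 fibroblast markers 1 was tested and was lower, with summed levels of 1.54 to 1.67 against 4.43 to 8.30 FPKM. Of 10 endothelial markers 1, ESAM, was tested and was lower, and the sums were 1.07 to 1.52 against 36.2 to 50.7 FPKM. ESAM reached the mean of 1 FPKM through the control-labelled group, in which it was high. The part of such differences in the values below was not tested.

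The 10 genes ranged from number 28 of the table by level to complete absence of reads. In 7 of them every overexpression-labelled library lay above every control-labelled library, in 1 (CTTN) every one lay below, and in 2 (FGF4 and PPFIA1) the groups overlapped. Over all 13972 genes tested, 80.1% had groups that did not overlap: 39.2% had groups that did not overlap with the overexpression-labelled group higher and 40.9% had them with that group lower. At least 10-fold higher mean levels were seen in 5 genes (MYEOV, CCND1, FGF19, FGF3 and ANO1) and at least 2-fold in 7, where 6.16% and 20.3% of all tested genes had as large a ratio. These shares are given beside the counts because the genes were picked on this contrast. Together the 10 genes took 0.493% to 0.506% of all reads in the overexpression-labelled libraries and 0.0601% to 0.0622% in the control-labelled libraries. CCND1 alone made up 67.1% to 67.5% of those reads in the former and 24.2% to 25.9% in the latter.

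**Figure D1:**
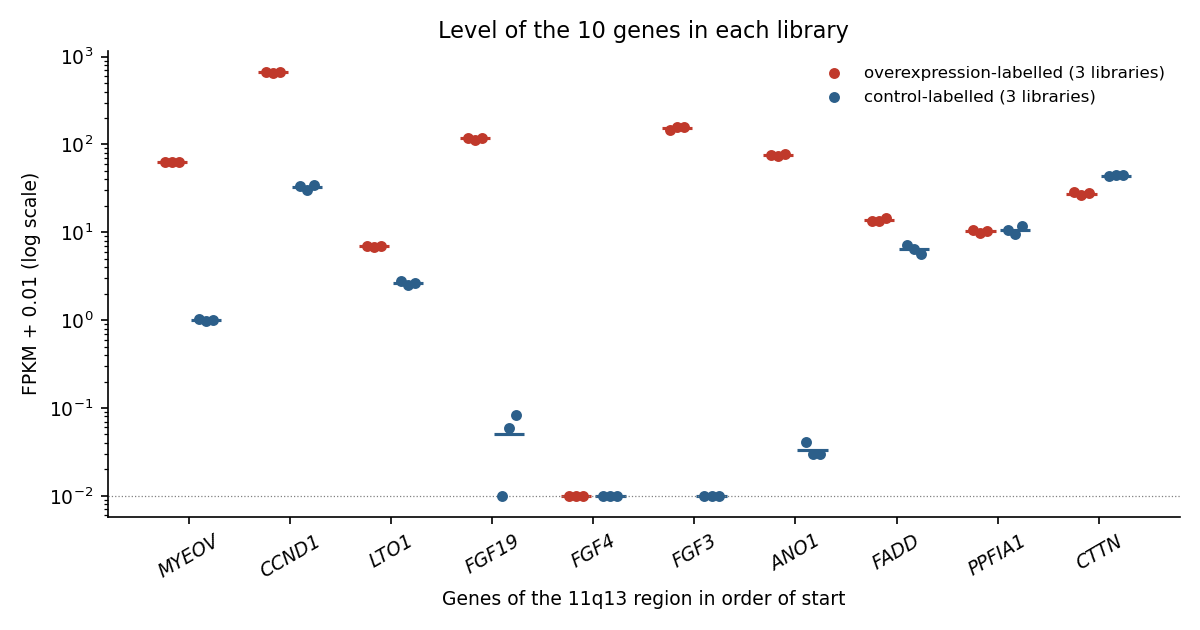
Level of the 10 genes (FPKM + 0.01, log scale; the dotted line marks 0 FPKM) in the 3 overexpression-labelled and 3 control-labelled libraries, in order of gene start; points are libraries and bars are group means. FGF3 is at 145 to 159 FPKM in one group and at 0 in the other, FGF4 is at 0 in all 6 libraries, and CTTN is the one gene whose control-labelled libraries all lie higher.

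CCND1 (ENSG00000110092) spans positions 69641087 to 69654474 of chromosome 11 on the plus strand, in GRCh38 coordinates as the table gives them. It measured 666, 655 and 669.7 FPKM under the overexpression label and 33.8, 30.3 and 34.6 FPKM under the control label. The groups lay far apart and varied little within themselves, with means of 664 ± 7.4 and 32.9 ± 2.3 FPKM (SD, n = 3 each). The ratio of the means was 20.2 and rested on 171713 against 7920 reads. Cyclin D1 mRNA was thus present in both groups. By mean level CCND1 was gene number 28 of the whole table in the overexpression-labelled group and number 1417 in the control-labelled group, where 89.9% of the tested genes were still lower. In bulk RNA, more cells that express a gene and more of its RNA per cell cannot be told apart.

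The 3 genes for fibroblast growth factors lie between 57.1 and 169 kb from the start of CCND1, all on the minus strand. FGF19 (ENSG00000162344, positions 69698232 to 69704642) encodes an endocrine ligand that binds FGFR4 together with the co-receptor beta-klotho (KLB). It measured 119.9, 112 and 119 FPKM under the overexpression label and 0, 0.048 and 0.073 FPKM under the control label. It had 15330 reads in the overexpression-labelled group and 5 in the other, and the mean in the former was 117 ± 4.2 FPKM (SD, n = 3). The ratio of means was 2884, with an exact 95% counting interval of 1236 to 8884 that covers counting error only. As it rests on 5 reads, the ratio was 1923 without control-labelled replicate 1 and 4832 without control-labelled replicate 3.

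FGF3 (ENSG00000186895, positions 69809969 to 69819024), a paracrine ligand of development first known as a target of viral insertion in mouse mammary tumours, measured 145, 159 and 156 FPKM under the overexpression label. It had 0 reads in each of the 3 control-labelled libraries against 9981 in the other group. With the control-labelled group set to 3 reads in sum, it was at least 3098-fold higher. With control-labelled replicate 2 or replicate 3 left out, the bound was 2051 or 2059, as the floor then covers fewer libraries. FGF4 (ENSG00000075388, positions 69771016 to 69775403), a ligand of the early embryo, lies between the other two. It had 0 reads in all 6 libraries, so neither group showed its mRNA at this depth. Among the ligand genes, then, the FGF4 locus had no reads while both of its FGF neighbours ranked high by mean level in the overexpression-labelled group, FGF3 at number 186 and FGF19 at number 261 of the whole table.

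ANO1 (ENSG00000131620, positions 70078302 to 70189528, plus strand) encodes anoctamin 1, a chloride channel of the plasma membrane that opens with calcium. It measured 75.5, 73.1 and 78.9 FPKM under the overexpression label and 0.031, 0.020 and 0.020 FPKM under the control label. The ratio of means was 3246 (95% counting interval 1575 to 8075), from 24459 against 7 reads. MYEOV (ENSG00000172927, positions 69294138 to 69367726, plus strand), named for its overexpression in myeloma, is the member nearest the centromere. It measured 63.8, 62.5 and 63.05 FPKM against 1.03, 0.977 and 0.985 FPKM, a ratio of 63.3 from 12708 against 187 reads. Each of its 3 control-labelled libraries held 62 or 63 reads, so the low level there was even. ANO1 and MYEOV thus had similar levels in the overexpression-labelled group, while in the control-labelled group MYEOV was the higher of the pair.

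LTO1 (ENSG00000149716, positions 69653076 to 69675416, minus strand) encodes an adaptor that helps to deliver an iron-sulphur cluster to the ribosome recycling factor ABCE1. It measured 6.89, 6.86 and 7.03 FPKM under the overexpression label and 2.78, 2.49 and 2.64 FPKM under the control label, a ratio of 2.63 with no overlap. The annotated 3′ part of LTO1 runs into CCND1 on the other strand, and 497 exon bases are common to both, 6.31% of the exon bases of LTO1. Whether counting used the strand is not given in the sources used here, and the part of CCND1 reads in the LTO1 value was not tested. FADD (ENSG00000168040, positions 70203163 to 70207390, plus strand) encodes the adaptor that links death receptors to caspase 8. It measured 13.4, 13.6 and 14.4 FPKM against 7.23, 6.37 and 5.68 FPKM, a ratio of 2.14 from 1359 against 590 reads. FADD and LTO1 were therefore expressed in both groups, with differences far smaller than those of their neighbours CCND1, FGF19 and ANO1.

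The 2 genes nearest the telomere did not share the higher level. PPFIA1 (ENSG00000131626, positions 70270700 to 70385312, plus strand) encodes liprin-alpha-1, a scaffold of focal adhesions that binds LAR-type phosphatases. It measured 10.6, 9.83 and 10.3 FPKM under the overexpression label and 10.6, 9.58 and 11.9 FPKM under the control label. The overexpression-labelled values fell inside the range of the others, and the log2 ratio of means was -0.06, which became 0.05 with the sum of reads as the library size and 0.02 without control-labelled replicate 3. CTTN (ENSG00000085733, positions 70398404 to 70436584, plus strand) encodes cortactin, which stabilises branched actin filaments at the cell edge. It measured 28.4, 26.8 and 27.7 FPKM against 43.5, 44.7 and 44.3 FPKM. The mean was 1.60-fold lower under the overexpression label (27.6 ± 0.78 against 44.2 ± 0.60 FPKM, SD, n = 3 each), and lower under each of the scalings tried.

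The order of the genes by level therefore differed between the groups. In the overexpression-labelled libraries it ran CCND1, FGF3, FGF19, ANO1, MYEOV, CTTN, FADD, PPFIA1, LTO1 and FGF4. The ranges of neighbours in this order did not overlap there. In the control-labelled libraries CTTN came first, followed by CCND1, PPFIA1, FADD, LTO1, MYEOV, FGF19, ANO1 and, with 0 reads each, FGF3 and FGF4. There the ranges of FGF19 and ANO1 overlapped, and those of the genes from CTTN to MYEOV did not. CTTN was thus the most abundant of the 10 genes in one group and the sixth in the other. The spread between libraries was small for the genes with many reads: the SD was 1.08% to 4.73% of the mean for the 9 genes with reads in the overexpression-labelled group and 1.35% to 12.1% for the 6 genes with over 10 reads in the control-labelled group.

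The start regions of 5 of the 10 genes (LTO1, FGF3, ANO1, FADD and PPFIA1) were matched by symbol in the RefSeq promoter table (GRCh38.p14). The 250 bases before the RefSeq start are printed for FGF3 and ANO1, the 2 matched genes that were nearly absent from the control-labelled libraries, and for PPFIA1, whose level overlapped between the groups. The sequences run 5′ to 3′ on the strand of the gene, and capitals mark each match to the SP1 box GGGCGG on either strand.
FGF3, chr11:69819417-69819666, minus strand: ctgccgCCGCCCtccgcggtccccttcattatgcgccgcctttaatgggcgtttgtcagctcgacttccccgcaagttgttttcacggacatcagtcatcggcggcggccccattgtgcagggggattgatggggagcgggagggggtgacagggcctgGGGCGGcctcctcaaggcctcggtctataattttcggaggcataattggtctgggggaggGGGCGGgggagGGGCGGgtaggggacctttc
ANO1, chr11:69985657-69985906, plus strand: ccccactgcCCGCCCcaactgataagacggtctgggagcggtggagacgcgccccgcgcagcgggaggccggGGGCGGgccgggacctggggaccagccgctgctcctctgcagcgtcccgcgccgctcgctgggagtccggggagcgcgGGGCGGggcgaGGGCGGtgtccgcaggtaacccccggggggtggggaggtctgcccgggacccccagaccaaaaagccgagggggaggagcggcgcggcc
PPFIA1, chr11:70270440-70270689, plus strand: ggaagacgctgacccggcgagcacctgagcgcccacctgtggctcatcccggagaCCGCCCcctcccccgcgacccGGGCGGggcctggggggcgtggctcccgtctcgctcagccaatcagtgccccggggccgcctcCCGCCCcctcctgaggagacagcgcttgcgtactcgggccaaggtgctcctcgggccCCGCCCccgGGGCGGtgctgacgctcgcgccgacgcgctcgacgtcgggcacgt

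All 3 are rich in G and C (64.4%, 78.0% and 76.8%, against a median of 58.0% over 35116 promoters). The SP1 box was matched 4 times in FGF3, 4 times in ANO1 and 5 times in PPFIA1, and 2 times each in LTO1 and FADD. It is held by 42.6% of all promoter windows of this length, so it is common to genes of both patterns. No match was found in any of the 5 windows to the TCF/LEF core CTTTGA (11.2% of all windows), the AP-1 site TGANTCA (6.57%), the cyclic AMP response element core TGACGT (7.10%), the TATA box TATAAA (10.7%) or the E-box CACGTG (6.34%), each sought on both strands. For ANO1 the RefSeq start lies 92395 bases upstream of the start in the table. The long noncoding RNA AP003555.3, which begins 31 bases before that RefSeq start and runs on the same strand, had 3, 10 and 0 reads under the overexpression label and none under the control label.

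The stretch from MYEOV to CTTN holds 26 other genes of the table, most of them long noncoding RNAs and none protein-coding. From MYEOV to the start of ANO1 there are 16 of them, and 14 of these had reads. All 14 had more reads in the overexpression-labelled libraries, 1968 against 23 in sum, and 7 of the 14 had 0 reads in the control-labelled group. These 7 were counted only through the group in which they had reads. Some rest on few reads, such as AP000439.4 (1 against 0), AP003555.1 (5 against 0) and IFITM9P (9 against 0). Over all 13972 genes tested, 48.6% had a ratio of mean FPKM above 1, and the share among genes as low as these was not worked out. Most of these reads were from AP005233.2 (861 against 11 reads) and LINC01488 (548 against 1 read), which both lie between MYEOV and CCND1. AP007216.2, between FGF3 and ANO1, had 102 reads against 0. Of the 7 genes without control-labelled reads, IFITM9P lies inside the span of MYEOV. AP003555.3 spans the RefSeq start of ANO1, and AP003555.2, AP003555.1 and LINC02584 lie between that start and the ANO1 start used here. Whether reads from MYEOV or ANO1 transcripts were counted for these genes was not tested. Of 10 genes from the start of ANO1 to CTTN, 2 had more reads in the overexpression-labelled group and 4 in the control-labelled group, with 141 against 167 reads in sum. Most of these reads were from AP000487.1, which had 109 against 117 reads. This split, at ANO1, was chosen after the values were seen, and the difference between its sides was not tested. Of the 26 genes 5 reached a mean of 1 FPKM and were higher in the overexpression-labelled group by limma, but all 5 passed that minimum through the group in which they were high, so this count supports nothing.

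**Figure D2:**
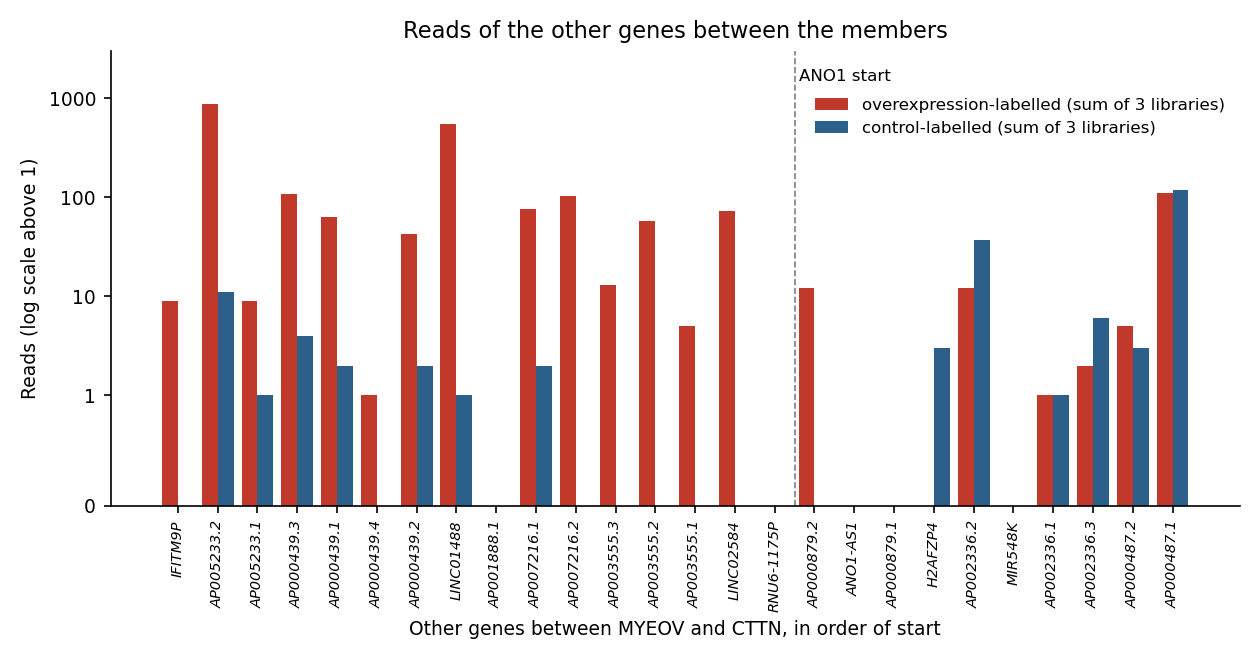
Reads of the 26 other genes between MYEOV and CTTN, in order of start, summed over the 3 libraries of each group (log scale above 1 read; the dashed line marks the start of ANO1). Before the line all 14 genes with reads have more in the overexpression-labelled group, and after it 2 have more in that group and 4 in the other.

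Some of these RNAs lie across a member on the other strand. ANO1-AS1 shares 646 bases with the exons of ANO1 and AP000879.1 shares 1011 bases with those of FADD, and both had 0 reads in all 6 libraries although ANO1 had 24459 reads in the overexpression-labelled group. Reads of ANO1 and FADD were thus not also counted for their antisense partners. The shared bases make up 10.7% of the exon bases of ANO1 and 54.9% of those of FADD. Whether reads in them were counted for ANO1 and FADD or left out was not tested. MIR548K, a microRNA gene inside PPFIA1, also had 0 reads.

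Beyond the members the difference did not run in one direction. Within 2 Mb on either side of them and between them the table held 184 other genes, of which 56 were tested with limma on log2(FPKM + 1). Of these, 26 were higher and 21 lower at an adjusted p of 0.05, with a median log2 fold change of 0.09. The 26 include the 5 genes between the members, which passed the minimum through the group in which they were high. Over all 13972 genes tested the median was -0.03, with 37.5% higher and 39.3% lower. On the centromeric side 14 were higher and 16 lower of 37 (median -0.02), and on the telomeric side 7 were higher and 5 lower of 14 (median 0.08). TPCN2, an endolysosomal cation channel gene and the closest tested protein-coding gene before MYEOV, measured 2.60 ± 0.22 against 2.16 ± 0.30 FPKM (SD, n = 3 each; limma adjusted p = 0.105). SHANK2, a scaffold protein gene just past CTTN, had 839 against 19 reads (0.835 ± 0.039 against 0.020 ± 0.010 FPKM), and with a mean of 0.427 FPKM over the 6 libraries it was below the minimum for the test. Both were picked after their values were seen.

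Among the tested protein-coding neighbours whose groups did not overlap, the 6 with the largest log2 fold change of FPKM + 1 in each direction are named, with the ratio of their mean FPKM, which orders genes differently. Higher under the overexpression label were ACY3 (17.9-fold), CARNS1 (6.31-fold), TMEM134 (3.58-fold), PPP1CA (2.84-fold), NADSYN1 (2.38-fold) and LAMTOR1 (2.22-fold). ACY3, CARNS1 and TMEM134 were at means of 0.293, 0.316 and 0.951 FPKM under the control label. Each of them passed the minimum through the group in which it was high. Lower under the overexpression label were ALDH3B1 (3.98-fold), INPPL1 (2.89-fold), PITPNM1 (2.55-fold), DEFB131B (2.46-fold, from only 17 against 39 reads), TCIRG1 (1.98-fold) and FOLR1. FOLR1, the folate receptor alpha gene at 2548 kb from CCND1, measured 7.81, 7.46 and 6.49 FPKM against 659, 607 and 803 FPKM, 95.1-fold lower (limma log2 fold change -6.38, SE 0.12, adjusted p = 5.01e-08).

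**Figure D3:**
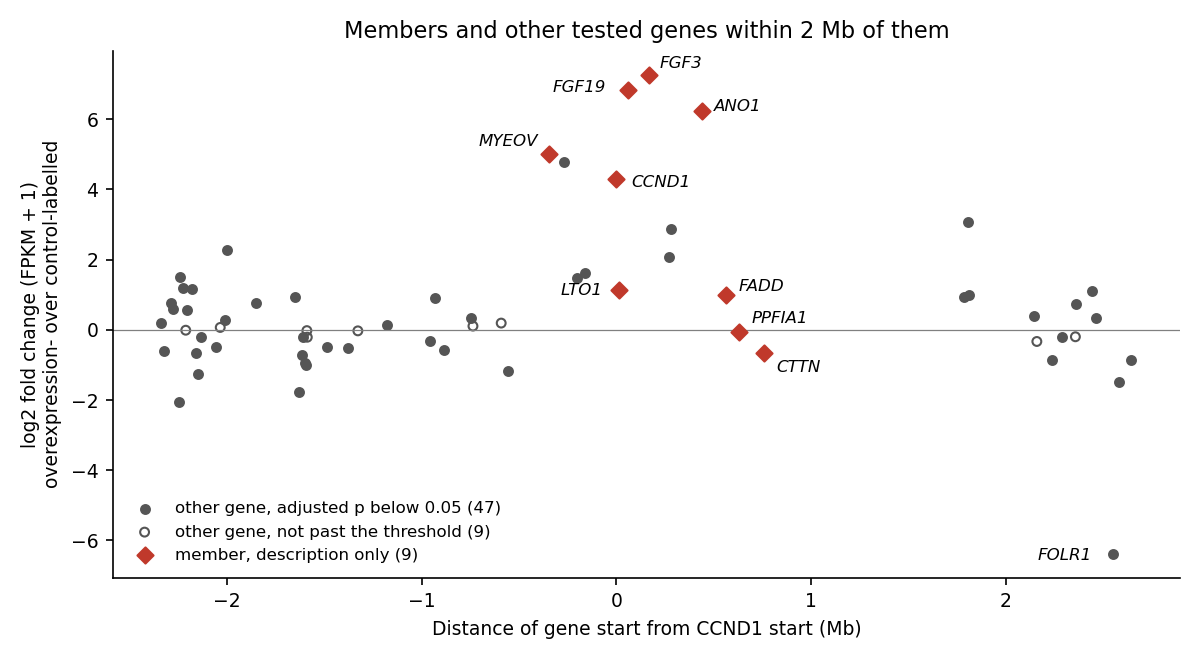
log2 fold change on the FPKM + 1 scale against the distance of each gene start from that of CCND1, for the 9 members with a mean of at least 1 FPKM (diamonds) and the 56 other tested genes (circles, filled where the adjusted p is below 0.05). The members from MYEOV to ANO1 other than LTO1 lie at 4 or more, FADD near 1 and PPFIA1 near 0, and the genes on either side scatter around 0.

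The rest of chromosome 11 gives the background to these neighbours. Of 795 tested genes with the members left out, 287 were higher and 321 lower, with a median of -0.04. The window from 65 to 70 Mb, which holds the members from MYEOV to FGF3, had a median of 0.10 over 124 genes and was number 6 of 26 windows of 5 Mb. The next window, with ANO1 to CTTN, had a median of -0.26 over 46 genes. The medians of all windows ran from -1.11 to 0.55, the highest being at the tip of the short arm.

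**Figure D4:**
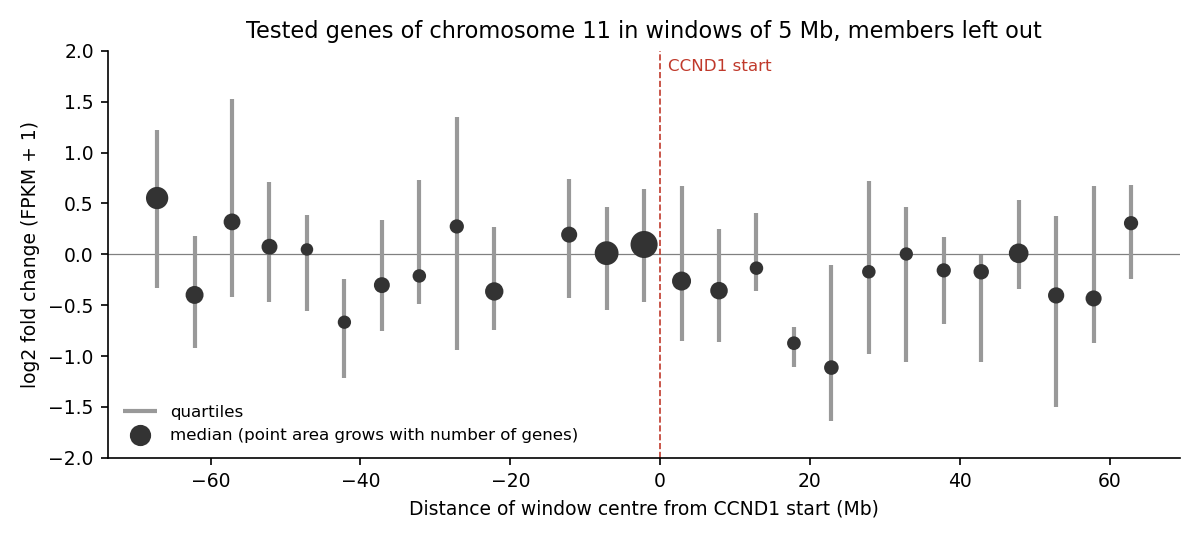
Median (points) and quartiles (bars) of the log2 fold change of tested genes in windows of 5 Mb along chromosome 11, members left out, against the distance of the window centre from the start of CCND1. The windows beside CCND1 have medians of 0.10 and -0.26, inside the range of the others.

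The genes closest to CCND1 in level across the 6 libraries were NSMF (root mean square difference of 0.14 on the log2 scale; 729 ± 3.4 against 36.3 ± 4.0 FPKM), SLC2A1 (0.77) and MT2A (0.82), on chromosomes 9, 1 and 16. All comparisons of level were among tested protein-coding genes. Those closest to FGF19 were FGF3 itself (0.29), DUSP6 (0.33; 131 ± 3.9 against 0.40 ± 0.15 FPKM) and KRT13 (0.38; 169 ± 4.3 against 0.11 ± 0.030 FPKM; SD, n = 3 each). Of 3 nearest genes each, FGF3 was thus the one from the same region. FGF19 and FGF3 were both picked on this contrast, so their likeness supports nothing.

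The partners of the encoded proteins were read from lists of genes outside the region. Over the 9 lists 97 genes were tested, 35 higher and 47 lower by limma, with a median log2 fold change of -0.17. Over all 13972 genes tested, 37.5% were higher and 39.3% lower, with a median of -0.03. A call was thus common in either direction, and the counts of the single lists below are a description to be read beside these shares. Of 21 genes that act with cyclin D1, 2 were higher and 13 lower (median log2 fold change -0.46). The count of 2 became 1 when any of the overexpression-labelled libraries or control-labelled replicate 1 was left out, and 3 without control-labelled replicate 2 or 3. CDK6, a kinase partner of cyclin D1, was 4.64-fold lower, and the inhibitor genes CDKN2B, CDKN1C and CDKN2A were 4.35-fold, 3.75-fold and 3.61-fold lower. CDK4 measured 39.96 ± 2.4 against 43.1 ± 0.79 FPKM and did not pass. Of the other D-type cyclins, CCND3 was 1.87-fold lower (15.97 ± 0.17 against 29.9 ± 5.4 FPKM) and CCND2 was below the minimum in both groups. The level of CCND1 was thus far above that of CCND3 in the overexpression-labelled group, and the ranges of the pair overlapped in the other.

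For the ligands, 9 receptor and adaptor genes were tested, of which 3 were higher and 3 lower (median 0.01). FGFR4, the receptor of FGF19, was 1.41-fold higher and SOS1 1.45-fold higher, while FGFR3 was 7.25-fold and FRS2 2.44-fold lower. KLB, the co-receptor that FGF19 needs, had 27 reads in each group (0.083 ± 0.032 and 0.089 ± 0.039 FPKM, SD, n = 3 each). Like KLB, FGFR2 and KL were below the minimum for the test. FGFR2 measured 1.35 ± 0.19 against 0.22 ± 0.028 FPKM (547 against 83 reads), and KL had 99 against 2 reads. Of 14 feedback targets of FGF and ERK signalling, 12 were higher and 1 lower, with a median log2 fold change of 1.55. Of the 15 genes of this list, 14 reached a mean of 1 FPKM in the overexpression-labelled group and 12 in the other. The phosphatase gene DUSP6 was 326-fold, IL17RD 254-fold, SPRY4 17.6-fold and EGR1 7.46-fold higher. DUSP6, at 0.40 ± 0.15 FPKM under the control label, passed the minimum through the group in which it was high, so the count is given as a description. Of 4 other FGF ligand genes tested 3 were higher and 1 lower: FGF20 was at least 97.8-fold higher, FGF9 469-fold (95% counting interval 83.8 to 18562, from 1 read) and FGF18 62.2-fold (29.97 to 156, from 7 reads), and FGF2 was 747-fold lower (320 to 2301, from 5 reads). Each of these 4 passed the minimum level through the group in which it was high, and on the TPM scale 7 were tested, 4 higher and 3 lower.

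Of 13 genes of death receptor signalling, 8 were higher, with TNFSF10 (0 reads in the control-labelled libraries) at least 381-fold and RIPK1 2.81-fold, and 4 were lower, with TNFRSF10B 2.34-fold (median of the list 0.32). TNFSF10 passed the minimum level through the group in which it was high. Of 6 other anoctamin genes, ANO9 was 5.50-fold higher and 4 were lower, among them ANO2 (12.2-fold), ANO8 (3.24-fold) and ANO4 (2.21-fold), with a median of -0.47. Of the 9 anoctamin genes listed, 4 reached a mean of 1 FPKM in the overexpression-labelled group and 6 in the other. Of 17 genes of cortactin and branched actin, 4 were higher and 10 lower, led by WIPF1 (1 against 3950 reads), FSCN1 (16.6-fold), MYO1E (16.5-fold) and CTTNBP2NL (4.22-fold), with a median of -0.24. WIPF1 passed the minimum through the control-labelled group, in which it was high. With the sum of reads as the library size the actin list had 5 higher and 7 lower. Of 6 genes of liprins and LAR-type phosphatases 2 were higher, PPFIBP1 7.97-fold, and 4 lower, KANK1 6.61-fold, PTPRS 4.27-fold and PTPRF 3.86-fold (median -1.02). The 7 genes listed as partners of LTO1 were all lower (median -0.36), led by MMS19 (1.83-fold), CIAO3 (1.40-fold), CIAO2B (1.31-fold) and CIAPIN1 (1.30-fold), and 6 of 7 were past the threshold on the sum-of-reads scaling and 5 of 7 with voom.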

How the data were processed

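The deposited values are FPKM, made by the authors from libraries of total RNA, with a length for each gene. No source used here names the aligner, the counter or its strand setting. The build is mm10 per the submitters' processing notes, yet all 58735 identifiers, starts and ends matched human GENCODE 29 (GRCh38). FPKM times gene length was a whole multiple of 1 read (tolerance 0.001 read) for 100% of values. Libraries were grouped by title. The test was limma 3.58.1 (R 4.3.3; trended variance; two-sided) on log2(FPKM + 1). It took genes averaging 1 FPKM or more, among them 9 members, with Benjamini-Hochberg adjustment over all of them and a threshold of 0.05. This scale understates changes of low genes. Folds divide one group's mean FPKM by the other's. A group at 0 reads was set to 3 reads over the group, and 95% counting intervals are given under 10 reads. These cover counting error only. Members and lists were chosen with earlier results of these data known. Named genes were the members, DDX39B, the 6 largest protein-coding changes each way within 2 Mb, up to 4 per list (9 pathway and 4 marker lists) and the 3 nearest in level. One gene that this rule names is not reported here. Alternatives changed pseudocount, filter, scaling, trend and test (voom), added the replicate number as a block and left out each library. On simulated reads for 13858 genes 98% of genes doubled, 95.6% of those halved, 68% of those 1.5-fold higher and 61.2% of those at 0.667 of their level were called. The simulation changed 200 genes and gave every gene the same dispersion, whereas 76.8% of genes were called in the data. These shares are therefore not the power of the test on the data. No further column of sample values (0) was left unused.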

Additional observations from a re-analysis of the deposited data

How the results depend on the processing

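Over the whole table, within 2 Mb and over all pathway lists together, the counts of genes past the threshold moved by over 1.5 times only with the filter on low values; single lists moved more. With no filter 8155 genes were higher over the whole table and 47 within 2 Mb of the members, against 5241 and 26. With a mean of at least 5 FPKM 2784 were higher and 3434 lower over the table, and 12 were higher within 2 Mb. The replicate numbers did not pair the samples (same-number correlations of -0.006, -0.022 and 0.007), and with the replicate block 5111 genes were higher and 5395 lower. Without each library in turn, 4606 to 5566 were higher and 5021 to 5578 lower over the table, 19 to 27 and 14 to 21 within 2 Mb, and 30 to 36 and 43 to 47 in the pathway lists, with 7 members at least 2-fold higher each time. Scaling by the sum of reads moved the median log2 fold change of all genes by 0.096. Ratios of FGF19, ANO1 and FGF3 are limited by the 5, 7 and 0 reads under the control label.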
